A study of Mus musculus with 24 samples.

Results

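The genes described here are 10 markers of astrocytes: Gfap, Aqp4, Slc1a2, Slc1a3, Aldh1l1, Gja1, Gjb6, S100b, Sox9 and Aldoc. They were selected by gene symbol and are 10 of the 24972 genes listed for each sex. All 10 passed the filter on low values in males and in females. RNA was sequenced from the medial prefrontal cortex (mPFC) of 24 mouse offspring at postnatal day 21 (P21), 6 for each combination of sex and treatment. The question was whether perinatal morphine (MO) was accompanied by a different level of these genes than saline (SAL) in either sex. The offspring were wild-type B6D2F1/J hybrids of a C57BL/6J dam and a DBA/2J sire, and carried no transgene. MO dams were injected subcutaneously each day with morphine sulfate, in rising doses at first and then at 10 mg/kg, from 1 week before breeding until weaning on P21. SAL dams received saline on the same schedule. Offspring were not injected in any group and were exposed only through the dam, small litters were combined after birth, and 1 offspring per litter and sex was taken. The labels do not say which libraries are littermates, and male and female libraries can share a litter. Comparisons and correlations over both sexes treat all 24 libraries as independent. Their p-values rest on the spread between these libraries and do not take litters into account. The tissue was dissected whole, with all its cell types.

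Astrocytes are the glial cells that clear glutamate from synapses, take up potassium and water around vessels, and pass metabolites among themselves through gap junctions. In rodent cortex they multiply and mature over the first postnatal weeks, when glutamate transporters and gap junction proteins increase. Several of the 10 genes are known from other cells too, among them S100b, Sox9 and Aldoc, which other glia, progenitors or neurons use.

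In units of 1000000, each library held 14.7 to 16.0 normalized counts, and the spacing of the lowest values corresponded to an estimated 13.5 to 20.1 reads (median 15.2). One female MO library, PFC1, stood apart. It had the highest level of 24 libraries for all 10 astrocyte genes, and its level of Gapdh was 0.809 times, and of Ppia 0.997 times, the median of the other 11 females. Its estimated depth, 14.7 in the same unit, lay within the range of the others. The comparisons and correlations of the astrocyte genes are therefore given with and without it. A further feature is the word combined in the headers of 11 libraries, PFC1 to PFC11, against 13 without it. What was combined is not stated.

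Promoters of RefSeq genes (GRCm38.p6) were matched by symbol for 8 of the 10 genes, with 9 promoters between them. Aqp4 and Sox9 had no entry. Shown are the 250 bases before the annotated start of the pair of genes whose levels were most alike across libraries, Slc1a3 at chr15:8710808-8711057 (minus strand) and Gja1 at chr10:56377050-56377299 (plus strand). S100b at chr10:76253586-76253835 (plus strand) and the first of both Aldoc promoters at chr11:78322823-78323072 (plus strand) are shown as a second pair, because S100b was most like Aldoc. The starts used here are not the GENCODE gene starts given below. The windows of Slc1a3, Gja1 and S100b end upstream of the GENCODE start, and that of Aldoc reaches past it. Capitals mark matches, on either strand, to 4 motifs that were searched: the SOX core ATTGTT, the nuclear factor I core TTGGCA, the STAT site TTCNNNGAA and the TATA box TATAAA.
Slc1a3: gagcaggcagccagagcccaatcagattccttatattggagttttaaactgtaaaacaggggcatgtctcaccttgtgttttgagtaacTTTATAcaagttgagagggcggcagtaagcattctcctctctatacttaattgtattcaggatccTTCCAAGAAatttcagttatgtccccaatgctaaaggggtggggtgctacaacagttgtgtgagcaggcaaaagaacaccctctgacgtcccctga
Gja1: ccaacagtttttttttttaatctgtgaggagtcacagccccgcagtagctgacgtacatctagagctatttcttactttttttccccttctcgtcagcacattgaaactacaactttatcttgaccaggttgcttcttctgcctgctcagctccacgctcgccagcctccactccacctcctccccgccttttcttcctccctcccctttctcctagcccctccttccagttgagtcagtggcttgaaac
S100b: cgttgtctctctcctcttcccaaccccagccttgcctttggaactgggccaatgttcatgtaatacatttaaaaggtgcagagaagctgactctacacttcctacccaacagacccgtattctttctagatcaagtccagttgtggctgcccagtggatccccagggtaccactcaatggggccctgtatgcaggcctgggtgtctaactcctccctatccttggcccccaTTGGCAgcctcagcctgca
Aldoc: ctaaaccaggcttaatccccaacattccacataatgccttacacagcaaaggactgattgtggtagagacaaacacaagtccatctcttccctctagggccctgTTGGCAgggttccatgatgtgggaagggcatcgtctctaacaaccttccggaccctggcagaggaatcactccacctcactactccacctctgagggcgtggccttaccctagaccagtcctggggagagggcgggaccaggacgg

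The nuclear factor I core, bound by factors that act in astrocyte formation, was found in 2 of the 9 promoters, those of S100b (bases -19 to -14 from the start) and Aldoc (-146 to -141), against 12.3% of all 32851 promoters. The STAT site was in 2 of the 9, that of Slc1a3 (-96 to -88) and the second Aldoc promoter, against 7.02% of all. The letters of the TATA box lay in that of Slc1a3 (-161 to -156), on the opposite strand. Of all promoters 12.4% held these letters on either strand, anywhere in the window. The SOX core was in 0 of the 9 and in 9.42% of all. The promoters shown for Slc1a3 and Gja1 shared none of the 4 motifs. These matches are descriptions of the letters in these windows. The windows of Slc1a2, Aldh1l1, Gfap and the second Aldoc promoter lie inside the genes as placed by GENCODE (coordinates below). For these genes the motif counts therefore do not describe the bases before the GENCODE start.

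The 10 genes spanned a wide range of levels per length. Divided by transcript length, the mean of 24 libraries was 4577 normalized counts per kb for Slc1a2 and 4266 for Aldoc, then 2318 for Slc1a3, 1216 for Gja1, 1152 for S100b, 482 for Gfap, 466 for Gjb6, 376 for Aqp4, 318 for Aldh1l1 and 133 for Sox9. Slc1a2 was above Aldoc in 17 of the 24 libraries, so these neighbours in the order did not separate. Gja1 was above S100b in 19 libraries, Gfap above Gjb6 in 13, Gjb6 above Aqp4 in 23 and Aqp4 above Aldh1l1 in 20. The remaining neighbours kept their order in all 24. In level without length, Slc1a2 was above nearly all of the 17303 genes kept over both sexes, and Sox9, the lowest of the 10, above 67.6% of them. The genes also differed in spread. The SD of log2 values within groups was 0.52 for Gfap (0.42 without PFC1), 0.33 for S100b (0.18 without PFC1) and 0.30 for Aqp4 (0.21 without PFC1). It was 0.18 for Gjb6 and 0.19 for Sox9, against a median of 0.20 over all kept genes (0.17 without PFC1).

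**Figure D1:**
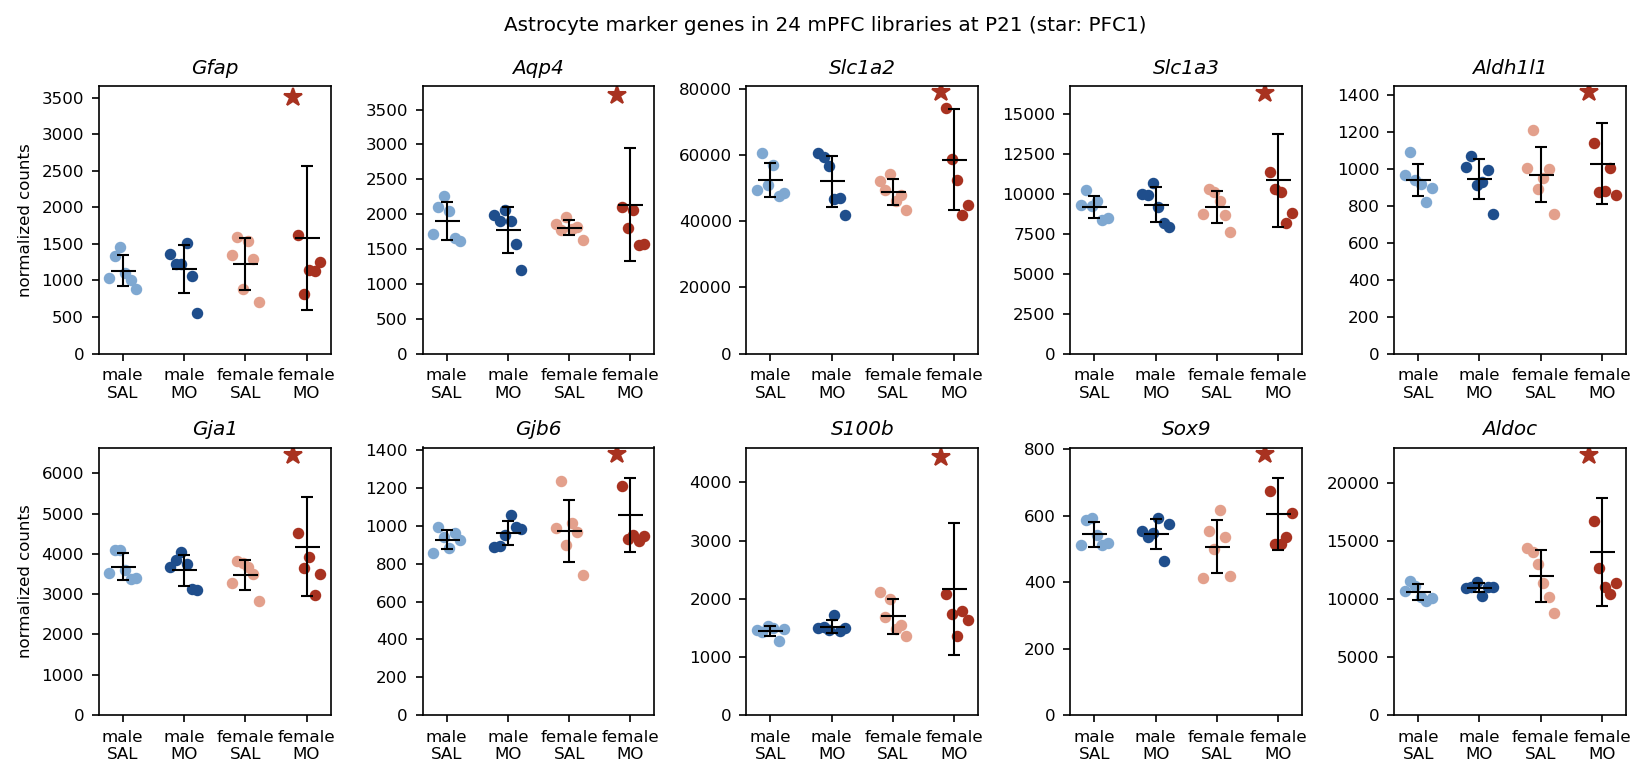
Normalized counts of the 10 astrocyte genes (vertical axes, each starting at 0) in the 6 libraries of each group, with black bars for the group mean and SD and a star for PFC1. PFC1 is the highest point in every panel, and the 4 groups overlap for each gene.

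The transporters for glutamate were considered first. Slc1a2 (GLT-1; GENCODE on GRCm38, as for all genes below, chr2:102658659-102790784, plus strand) encodes the main transporter that clears glutamate from the cortical synapse. Its values in male SAL ran from 47823 to 60822 normalized counts with a median of 50395, and in male MO from 42075 to 60628 with a median of 51932. Female SAL libraries held 43412 to 54289 (median 48829.8) and female MO 41877 to 79133 (median 55789), or up to 74404 without PFC1. Of the female MO libraries, PFC1, PFC3 and PFC5 lay above all female SAL libraries, and PFC21 lay below all of them. MO minus SAL was -0.019 on the log2 scale in males (95% interval -0.20 to 0.16), 0.22 in females (-0.10 to 0.55) and 0.13 in females without PFC1 (-0.13 to 0.39).

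Slc1a3 (GLAST; chr15:8634124-8710764, minus strand) is the transporter of radial glia and young astrocytes. In male SAL its values were 8384 to 10246 (median 9295) and in male MO 7949 to 10714 (median 9568). Female SAL libraries lay between 7629 and 10352 (median 9155) and female MO between 8168 and 16347 (median 10224), with 11365.5 as the highest without PFC1. Males of both groups shared nearly the same range. The log2 difference of MO from SAL was 0.013 in males (95% interval -0.13 to 0.16), 0.21 in females (-0.087 to 0.51) and 0.085 in females without PFC1 (-0.11 to 0.28).

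The gap junction genes came next. Gja1 (Cx43; chr10:56377330-56402513, plus strand) encodes the main connexin of astrocytes. Male SAL libraries held 3370.2 to 4106 normalized counts (median 3566) and male MO 3112 to 4047 (median 3715). For females the range was 2836 to 3815 in SAL (median 3591) and 2987 to 6462 in MO (median 3789), reaching 4527 without PFC1. PFC1, PFC3 and PFC8 were above every SAL female, and 5 of 6 female MO libraries were above the SAL mean on the log2 scale. The difference was -0.037 in males (95% interval -0.19 to 0.11), 0.22 in females (-0.087 to 0.54) and 0.089 without PFC1 (-0.12 to 0.30).

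Gjb6 (Cx30; chr14:57123303-57133611, minus strand), the second connexin of astrocytes, appears later in their maturation. Its male values were 857 to 995 in SAL (median 934) and 890.2 to 1058 in MO (median 968). In females they were 739 to 1238 in SAL (median 977) and 919 to 1382 in MO (median 949.6), with 1212 as the highest without PFC1. Female MO had the lower median and the higher mean, and only 2 of its 6 libraries, PFC1 and PFC3, were above the SAL mean on the log2 scale. MO minus SAL was 0.052 in males (95% interval -0.058 to 0.16), 0.12 in females (-0.15 to 0.38) and 0.035 in females without PFC1 (-0.19 to 0.26).

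Aqp4 (chr18:15389496-15410982, minus strand) encodes the water channel of astrocyte endfeet on vessels. Male SAL ran from 1609 to 2263 normalized counts (median 1879.6) and male MO from 1195 to 2059 (median 1903), with the lowest value in PFC19. Female SAL was narrow at 1632 to 1954 (median 1798), while female MO ran from 1564 to 3713 (median 1934), or to 2100.2 without PFC1. Aqp4 was the member with the lowest difference in males, at -0.11 on the log2 scale (95% interval -0.36 to 0.13). In females the difference was 0.18 (-0.17 to 0.52), and without PFC1 it was 0.0055 (-0.17 to 0.18).

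Gfap (chr11:102887336-102900912, minus strand) encodes the intermediate filament of astrocytes, which is low in healthy cortical grey matter, higher in white matter and under the pia, and increases in reactive astrocytes. Values were 887 to 1459.9 in male SAL (median 1062) and 559.5 to 1515 in male MO (median 1228). In female SAL they were 699 to 1594 (median 1320.3) and in female MO 822 to 3515 (median 1202), or 822 to 1617 without PFC1. Gfap was the most variable of the 10 genes, and the libraries at the ends of its range, PFC19 and PFC1, were both MO. The mean of female MO was 1582 ± 981 (SD, n = 6) with PFC1 and 1195 ± 286 (SD, n = 5) without it, against 1226 ± 359 (SD, n = 6) in female SAL. On the log2 scale MO minus SAL was -0.014 in males (95% interval -0.40 to 0.37), 0.25 in females (-0.36 to 0.87) and -0.011 without PFC1 (-0.44 to 0.42).

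S100b (chr10:76253853-76261159, plus strand) encodes a calcium-binding protein of mature astrocytes that is also made by cells of the oligodendrocyte lineage. Male SAL held 1281 to 1537 (median 1471) and male MO 1437 to 1726 (median 1499). Female SAL held 1363 to 2118 (median 1616) and female MO 1357 to 4431 (median 1761), or up to 2078 without PFC1. PFC1 had 2.64 times the median of the other 11 females, the second largest such ratio after Gfap (2.80). The log2 difference was 0.073 in males (95% interval -0.037 to 0.18), where 5 of 6 MO libraries exceeded the mean of SAL. In females it was 0.25 (-0.21 to 0.72), and without PFC1 0.023 (-0.23 to 0.27).

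Aldh1l1 and Aldoc encode enzymes. Aldh1l1 (chr6:90486427-90600203, plus strand), a folate enzyme used as a general label of astrocytes, ran from 822 to 1090.0 in male SAL (median 928) and from 753 to 1069 in male MO (median 961). Females held 757 to 1208 in SAL (median 975) and 859 to 1415 in MO (median 942), with 1139 as the highest without PFC1. It had the smallest difference in females, at 0.075 (95% interval -0.20 to 0.35), or -0.022 (-0.24 to 0.20) without PFC1, and in males the difference was 0.0051 (-0.16 to 0.17).

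Aldoc (chr11:78322968-78327781, plus strand) encodes aldolase C, a glycolytic enzyme. Its values in males were 9843 to 11545 in SAL (median 10419) and 10279 to 11426 in MO (median 11025). In females they were 8766 to 14356 in SAL (median 12194) and 10405 to 22350.4 in MO (median 11968), with 16677.5 in PFC3 as the next highest. The female groups overlapped between 10405 and 14356. MO minus SAL was 0.053 in males (95% interval -0.040 to 0.15), 0.20 in females (-0.18 to 0.58) and 0.054 in females without PFC1 (-0.23 to 0.34).

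Sox9 (chr11:112782224-112787760, plus strand) encodes a transcription factor that starts the glial programme in progenitors and stays on in the nuclei of astrocytes. It ran from 512 to 594 in male SAL (median 529.8) and from 464 to 595 in male MO (median 551). Female SAL held 414 to 619 (median 518) and female MO 514 to 787 (median 573), or up to 675 without PFC1. All 6 female MO libraries were above the mean of female SAL on the log2 scale, but the groups overlapped. The difference in males was 0.0015 (95% interval -0.13 to 0.13). In females it was 0.25 ± 0.12 (SE), which gave the lowest p among the 10 genes, with a 2-sided exact permutation p = 0.0996, an unadjusted limma p = 0.0544 and a limma adjusted p = 0.918. Without PFC1 the difference was 0.18 ± 0.11 (SE), higher in 5 of 5 MO libraries, with an exact permutation p = 0.195.

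Across the 10 genes, 0 had an unadjusted limma p under 0.05 in males, against 2.85% of the 16662 genes tested there. Their median log2 difference was 0.0033 (range -0.11 to 0.073), and 6 of the 10 lay above 0. In females 0 of the 10 passed, against 2.93% of 16717 genes. All 10 female differences lay above 0 with a median of 0.22, where the median of all genes was 0.0018 and 50.5% of them lay above 0. Leaving out PFC1 brought the median of the 10 to 0.044 and the number above 0 to 8, and again 0 passed, against 2.26% of 16590 genes. Over both sexes the median was 0.11 (0.045 without PFC1), with 0 of the 10 passing against 4.72% of 17303 genes. The test of whether MO minus SAL differed between females and males also passed for 0 of the 10, against 2.10% of genes, with a median female minus male difference of 0.22 that became 0.038 without PFC1. No gene of any kind passed an adjusted p of 0.05 in these limma comparisons, with 475 genes at an unadjusted p under 0.05 in males (222 higher in MO, 253 lower) and 490 in females (302 higher, 188 lower). Scaled to Gapdh and Ppia instead, the split was 97 higher and 193 lower in males and 624 higher and 47 lower in females, and over all genes the median shifted to 0.091 in females and the female minus male difference to 0.11. The median of the 10 genes in females was then 0.31, or 0.11 without PFC1. In whole tissue, a different number of astrocytes and a different amount of RNA per astrocyte cannot be told apart, and the 10 genes are not independent of each other.

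**Figure D2:**
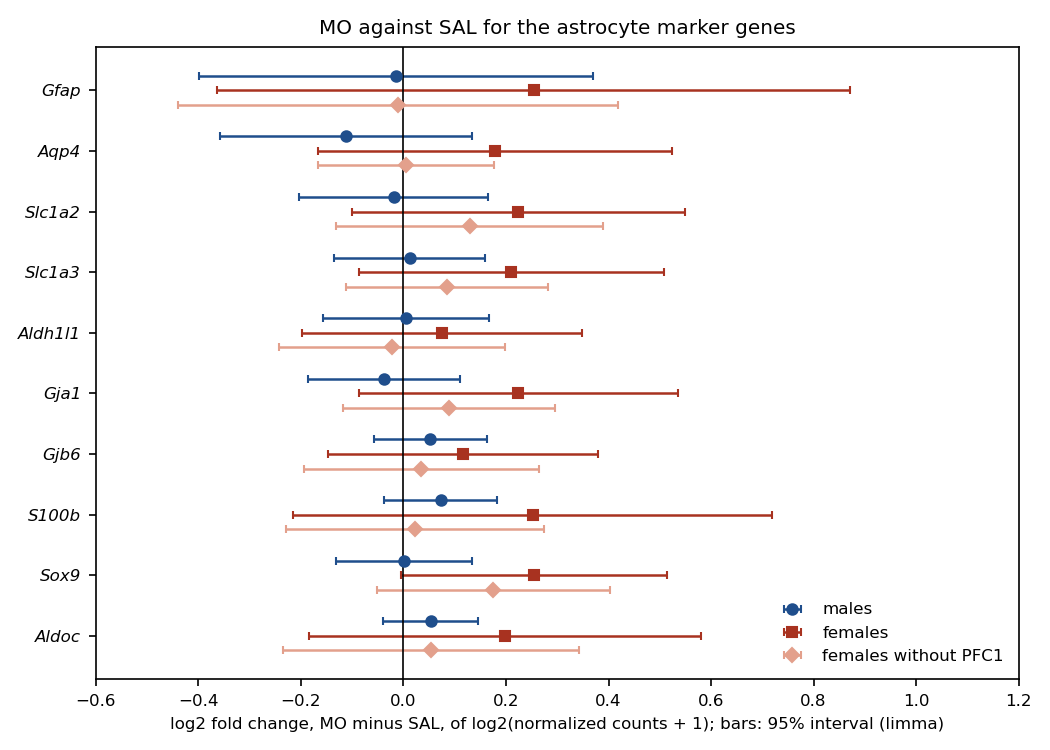
MO minus SAL on the log2(normalized counts + 1) scale (horizontal axis) for each astrocyte gene, with 95% intervals from limma, in males, in females and in females without PFC1. Every interval contains 0, the 10 female points lie above 0, and leaving out PFC1 moves their median from 0.22 to 0.044.

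The 10 genes varied together from library to library. After the group means were removed, Pearson's r of log2 values was above 0 for all 45 pairs over the 24 libraries, with a median of 0.70 (0.41 to 0.96) and a median Spearman's rho of 0.61. Among all pairs of the 17303 kept genes the median r was -0.003, and 1.24% of pairs were above 0.70. Restricted to genes whose mean reached 100 normalized counts it was 0.012, with 2.94% above 0.70. Without PFC1 the median over the 45 pairs was 0.54 (0.15 to 0.92), still above 0 for all 45, and 3.06% of the pairs of kept genes, or 5.79% of those of genes whose mean reached 100, were above that median. The libraries share their dissection and scaling, and the genes are not independent replicates.

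The likeness was not equal among members. Slc1a3 and Gja1, the pair with the promoters shown above, had r = 0.96 and rho = 0.91 over 24 libraries, with permutation p = 1e-05 for both, the smallest that 100000 permutations can give, and 0.00015 after Benjamini-Hochberg adjustment over the 45 pairs. Without the 2 libraries farthest from the median of Slc1a3, r was 0.91, and without PFC1 alone it was 0.92. Aqp4 had r = 0.90 with Gja1 and 0.89 with Slc1a3, which became 0.79 and 0.77 without PFC1. Slc1a2 and Slc1a3 had r = 0.87, or 0.84 without PFC1. These 4 genes, both glutamate transporters, the water channel and the connexin gene Gja1, all kept r of at least 0.74 with each other without PFC1. Gfap was most like Aldh1l1, with r = 0.84 (0.76 without PFC1).

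S100b and Sox9 stood furthest from the others once PFC1 was left out. The median r of S100b with its 9 partners went from 0.65 to 0.28, and that of Sox9 from 0.55 to 0.34. S100b and Aldoc, the second pair of promoters shown, kept r = 0.69 without PFC1 (rho = 0.54, permutation p = 0.0145 for r and 0.0322 for rho, adjusted over the 45 pairs 0.0326 and 0.0762). Their r was 0.78 in the 11 females without PFC1, -0.058 in the 12 males and 0.093 in the 13 libraries without the word combined, and the difference between these sets was not tested. S100b and Sox9 had the lowest value of the 45 without PFC1, at r = 0.15. The 2 connexins were less alike than Gja1 and Slc1a3, at r = 0.70, or 0.54 without PFC1. Gjb6 with Aqp4 was at 0.48, or 0.16 without PFC1. In all, the permutation p of r passed 0.05 after adjustment over the pairs for 41 of the 45 with all libraries and for 27 without PFC1.

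The correlations were also computed by sex and by the header word. In the 12 males the median r of the 45 pairs was 0.37 (-0.43 to 0.93), with 36 pairs above 0, and in the 12 females it was 0.78 (0.54 in the 11 without PFC1). Over 10 libraries whose headers hold combined, PFC1 among them and the single male SAL one left out, the median was 0.80 (0.46 over the 9 without PFC1), and over the 13 others it was 0.54.

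**Figure D3:**
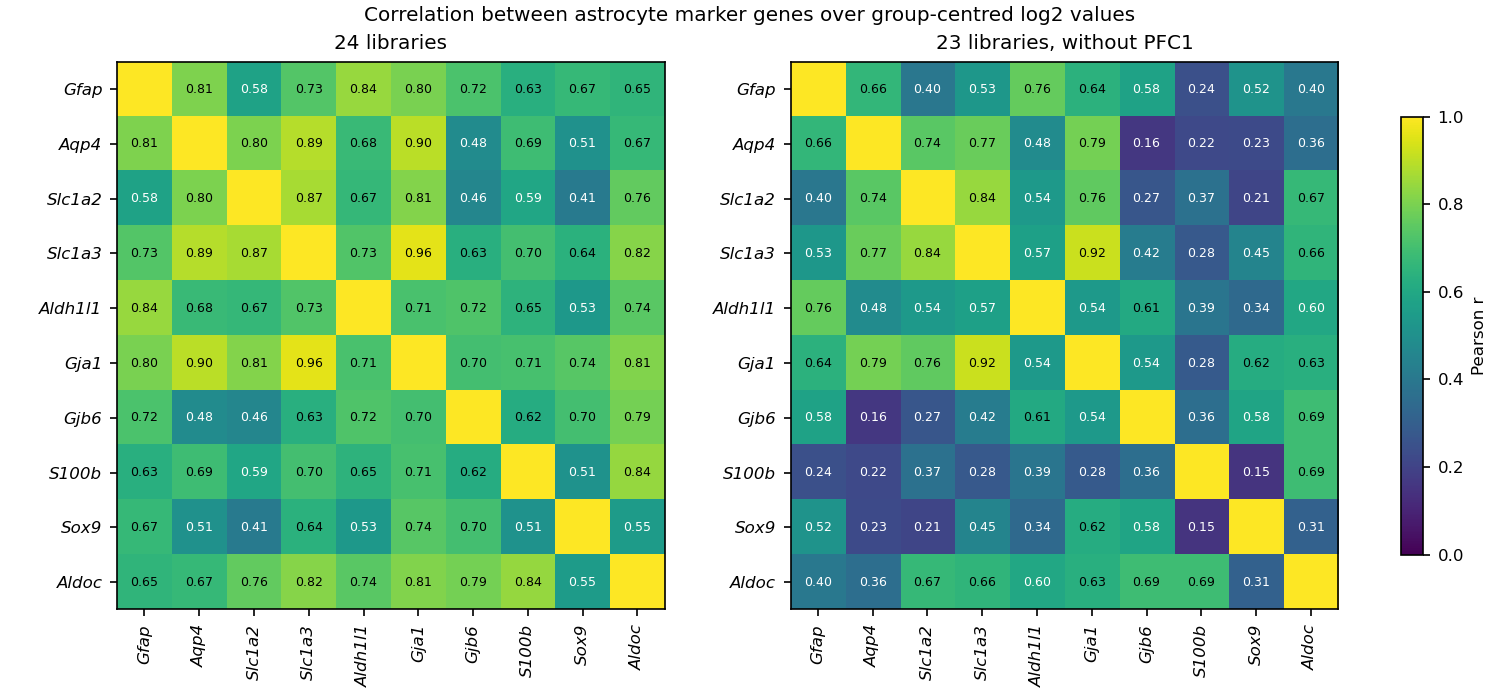
Pearson r between the astrocyte genes over log2 values with group means removed, in 24 libraries (left) and in 23 without PFC1 (right), with colour from 0 to 1. Slc1a3 and Gja1 have the highest value in both (0.96 and 0.92), and S100b and Sox9 have the lowest median r without PFC1 (0.28 and 0.34).

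Genes outside the 10 were ranked by their r with the mean of the 10 genes over the 24 libraries, among 10554 genes whose mean reached 100 normalized counts. The closest were Grin2c, Prdx6 and Glul, each with r = 0.96, followed by Jam2, Pttg1ip, Pla2g7, Ezr, Hepacam, Sfxn5 and Pcdhgc3, all at 0.95. Without PFC1 these values were 0.94 for Grin2c, 0.92 for Prdx6 and 0.93 for Glul, and 0.89 to 0.91 for the other 7. Glul encodes glutamine synthetase, the enzyme that turns cleared glutamate into glutamine, and its level ran from 18853 to 33447 outside PFC1, where it was 42452. Hepacam encodes an adhesion protein that binds the Gja1 protein, and Grin2c an NMDA receptor subunit used by cortical astrocytes. Of the 10 closest genes 4 were on the astrocyte lists described below, and all 10 were at their highest in PFC1. The genes running most opposite were Wrb and Prkce (r = -0.94 for both), Thumpd1 and Elavl2 (-0.93 for both) and Tmem87b (-0.92), all 5 at their lowest in PFC1. Elavl2 encodes an RNA-binding protein of neurons and Prkce a protein kinase C. Without PFC1 their r was -0.83 to -0.89. Over the 10554 genes the median r was -0.19, and 0.616% were above 0.9. Without PFC1 the median was -0.083 and 0.104% were above 0.9.

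Another 84 genes of astrocytes were described in 4 lists. For transport and ion balance (21 genes), the median MO minus SAL was -0.010 in males, 0.16 in females and 0.034 in females without PFC1. For metabolism and lipid handling (23 genes) it was 0.014, 0.20 and 0.064, for receptors and secreted proteins (26 genes) 0.030, 0.18 and 0.075, and for transcription factors (14 genes) 0.0027, 0.14 and 0.11. Of the 84 genes, 49 lay above 0 in males, 79 in females and 67 in females without PFC1, and 0 passed an adjusted p of 0.05 in limma. At an unadjusted p under 0.05, 3 were higher in male MO, 4 in female MO and 3 in female MO without PFC1, with 0 lower in each case. Those shares, 3 or 4 of 84, stand beside 2.85%, 2.93% and 2.26% of all genes.

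The female 4 were 2 transcription factor genes, a transporter gene and an enzyme gene. Gli3, the hedgehog pathway factor, had 133 ± 19.5 normalized counts in MO and 99.0 ± 8.88 in SAL (SD, n = 6 each), a log2 difference of 0.41 with an exact permutation p = 0.00433 and a limma adjusted p = 0.918. Without PFC1 it was 0.35. Npas3 had a difference of 0.24 (0.24 without PFC1), Slc7a11, the cystine and glutamate exchanger, 0.25 (0.20 without PFC1), and Cbs, an enzyme of homocysteine metabolism, 0.33 (0.23 without PFC1, where its unadjusted p was no longer under 0.05). In males the 3 genes were Ndrg2 at 0.10, the metallothionein gene Mt1 at 0.17 and Etnppl, an enzyme of phosphoethanolamine breakdown, at 0.25. None of the 7 passed an adjusted p of 0.05 in limma. All 7 are named for a low unadjusted p in these same libraries, so the permutation p of Gli3 is that of a selected gene.

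Genes of reactive astrocytes (34 listed, 32 tested in each sex) had a median difference of -0.035 in males and 0.051 in females, or -0.015 without PFC1. One passed an unadjusted p of 0.05 in each sex, 1 of 32 beside 2.85% of all genes in males and 2.93% in females, so that share was near the background. Steap4 was lower in male MO at 1.55 against 4.70 normalized counts, a level of a few reads, and Emp1 was higher in female MO at 47.6 ± 17.9 against 32.0 ± 7.99 (SD, n = 6 each), a log2 difference of 0.52. Without PFC1 the Emp1 difference was 0.37 and its unadjusted p was no longer under 0.05. In females without PFC1, 1 of the 32 genes was lower in MO at that threshold, against 2.26% of all genes. Over both sexes 1 of 33 was lower, against 4.72%, and without PFC1 3 of 33, against 3.49%.

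Markers of other cells moved with the astrocyte genes. Their r with the mean of the 10 is given with no test, since all lists share the same libraries and scaling. Over 24 libraries it was 0.90 for oligodendrocyte precursor genes, 0.84 for endothelium, 0.76 for myelin genes, 0.74 for microglia and -0.66 for pan-neuronal genes. Without PFC1 it was 0.86, 0.80, 0.64, 0.57 and -0.23. Neutrophil genes went from 0.58 to -0.095. The 4 astrocyte lists ran from 0.71 for transcription factors to 0.98 for receptors and secreted proteins, or 0.51 to 0.96 without PFC1, and reactive astrocyte genes were at 0.79 (0.61).

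**Figure D4:**
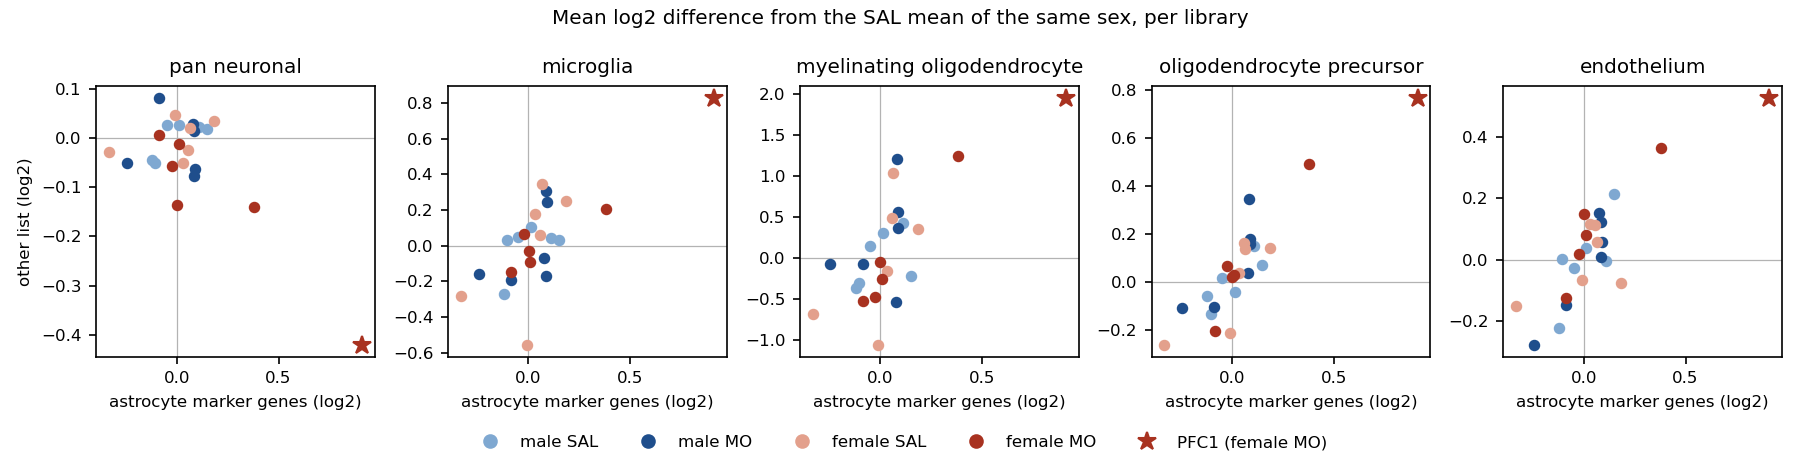
Mean log2 difference from the SAL mean of the same sex for the 10 astrocyte genes (horizontal axes) and for each of 5 other lists (vertical axes), with 1 point per library and a star for PFC1. PFC1 is at 0.91 for the astrocyte genes, 1.95 for myelin genes and -0.42 for pan-neuronal genes.

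PFC1 was the far end of these relations. The summed level of the 10 astrocyte genes was 139535 normalized counts in PFC1 and 68252 to 115795 in the other 23 libraries. Relative to the median of the other 11 females it was 1.65 times as high. The same ratio was 4.80 for the 10 myelin genes, 1.74 for oligodendrocyte precursor genes, 1.73 for microglia, 1.39 for endothelium, 22.9 for neutrophil genes (455 normalized counts in PFC1), 2.66 for erythroid genes and 0.738 for pan-neuronal genes, of which 8 of 12 were lowest in PFC1. Among astrocyte lists it was 1.63 for transport and ion balance, 1.82 for metabolism and lipid handling and 1.47 for receptors and secreted proteins. It was 1.26 for reactive astrocyte genes. Astrocyte transcription factors were at 1.02 in their sum, where PFC1 ranked 4 among the females. Taken singly, 9 of these 14 genes were highest in PFC1 among the females and 1 was lowest. For the single astrocyte genes the ratio ran from 1.45 for Gjb6 and 1.47 for Sox9 through 1.59 for Slc1a2 and 1.77 for Gja1 to 2.05 for Aqp4, 2.64 for S100b and 2.80 for Gfap. The parts of dissection, cell makeup and residual blood in the PFC1 values were not tested.

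Without PFC1, PFC3 had the highest value for 6 of the 10 genes, and at the other end PFC24 (female SAL) was the lowest of the 12 females for 6 and PFC19 (male MO) the lowest of the 12 males for 6. The mean log2 difference of the 10 genes from the SAL mean of the same sex was 0.91 in PFC1 and 0.38 in PFC3, against -0.33 to 0.19 in the other 22 libraries. In PFC3 the myelin list was also high, at a score of 1.25, the highest outside PFC1. In the header division, female SAL libraries averaged 0.085 with the word combined (n = 4) and -0.17 without it (n = 2), and female MO 0.33 (n = 4, or 0.13 without PFC1, n = 3) and -0.055 (n = 2). Male SAL averaged -0.049 (n = 1) and 0.0098 (n = 5), and male MO 0.083 (n = 2) and -0.039 (n = 4). Among the females without the word, PFC21 and PFC23 (MO, -0.085 and -0.024) both lay below PFC22 (SAL, -0.0090), and PFC24 (SAL, -0.33) was the lowest.

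In the group comparisons, some markers of other cells differed as well. In males 5 of 8 meningeal fibroblast genes were lower in MO at an unadjusted p under 0.05 (median -0.39), against 2.85% of all genes, and the summed list ran from 4833 to 9607 normalized counts in MO and from 6613 to 11734 in SAL. The 10 astrocyte genes had a median of 0.0033 in the same comparison. The fibroblast list had a median of 0.11 in females (7 of 8 above 0), or -0.038 without PFC1 (3 of 8 above 0). Its 8 genes are not independent of each other. In females, where 2.93% of all genes passed (2.26% without PFC1), 3 of 10 endothelial genes were higher in MO (median 0.17) and 1 of 10 without PFC1 (median 0.10). Of the neutrophil genes 3 of 9 tested were higher, and 3 of 7 without PFC1, at levels near the floor. Their sums ran from 5.06 to 22.1 counts in SAL and from 9.86 to 455 in MO. The value of 455 was that of PFC1, and the next highest was 57.0 in PFC5. Among these genes Ltf averaged 0.516 counts in SAL and 8.38 in MO, so it passed the filter on low values through its MO libraries. The number tested also changed with PFC1, so no conclusion is drawn from these counts. The female myelin list had a median difference of 0.28 that became -0.020 without PFC1, and the microglia list 0.13 that became -0.0029. The female pan-neuronal list had a median of -0.11, or -0.065 without PFC1. In males the myelin list had a median of 0.23 with 10 of 10 genes above 0, and 0 had an unadjusted p under 0.05. Over both sexes without PFC1 its median was 0.12, also with 10 of 10 above 0. Male oligodendrocyte precursor genes had a median of 0.11 (9 of 10 above 0) and male microglia genes -0.014 (5 of 12 above 0). The genes of a list are not independent of each other. Erythroid genes (7 tested) had a median of 0.78 in females and 0.58 without PFC1, with 7 of 7 above 0 in both. In males the median was 0.38 with 6 of 7 above 0, and at an unadjusted p under 0.05 1 gene was higher and 1 lower. Over both sexes 4 of 7 were higher at that threshold with and without PFC1, against 4.72% and 3.49% of all genes. The part of these cells and of residual blood in the astrocyte differences was not tested.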

How the data were processed

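Poly(A) RNA libraries of 24 mPFC samples were sequenced. Per the labels and methods, the authors used STAR for alignment to mm10, Salmon for quantification and DESeq2 for normalization. The deposited tables hold a signal, counts normalized by the authors, in 1 table per sex, scaled separately. Low values lay near multiples of 1 read (0.781 to 1.18 units). At 1 to 3 reads 71.9% to 94.2% of values per library were whole within 0.05 reads, and at 11 to 30 reads 9.02% to 74.2%, so reads were not recovered and no count test was used.

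Values were transformed as log2(value + 1), and genes summing to at least 10 were kept. MO was compared with SAL by limma 3.58.1 in R 4.3.3 (trend), with Benjamini-Hochberg adjustment over all genes kept, and over both sexes with sex as a term. Exact permutation tests used 924 relabellings, or 462 without PFC1. Correlations used values centred on group means and 100000 permutations. The fit was tested on simulated data. Transcript lengths are from GENCODE, promoters from RefSeq (GRCm38.p6). The authors' comparison results were not used in the tests.

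The members and lists were chosen with earlier results of these data known. Named are all 10 genes, up to 3 genes per other list and sex with the smallest unadjusted p under 0.05, the 10 genes most and 5 least like the members' mean, and Gapdh and Ppia. Genes of other cells that met that rule are summarised by list, and of these only Ltf is named. For pericyte and smooth muscle, and for ependyma and choroid plexus, no group comparison is given. Alternatives were other pseudocounts (0.5 and 5), filters, scalings (Gapdh and Ppia, or the sum of all genes), sample weights, a term for the header word combined, leaving out each library, and, added after seeing the data, each sex or header class alone and the Gapdh and Ppia scaling or header class without PFC1.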

Additional observations from a re-analysis of the deposited data

Results flagged for a closer look

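Of 40 combinations of gene and group, 4 held 1 library far from the other 5 by Dixon's test, where chance gives about 1 in 20, or 2. In female MO, PFC1 stood above the rest for Aqp4 (3713 normalized counts) and S100b (4431). In male MO, PFC15 stood above the rest for S100b (1726), and PFC19 below them for Gfap (559.5). PFC15 also had the highest male sum of myelin genes (141674). No test of MO minus SAL between the sexes passed its threshold for a member.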

How the results depend on the processing

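No paired analysis was possible because replicate numbers PFC1 to PFC24 are not shared between groups and littermates are not given. The count of genes past an adjusted p of 0.05 was 0 under every setting and left-out library, except in single header classes (below). Scaling to Gapdh and Ppia moved the median of all genes in females by 0.091, put 1 member past an unadjusted p of 0.05 (Sox9, 0.35) against 4.01% of all genes, raised the median r to 0.81 and turned males' Slc1a3 to -0.015, Aldh1l1 to -0.022 and Sox9 to -0.026. Sample weights brought the females' median of the 10 from 0.22 to 0.067 and turned males' Gfap to 0.044, Slc1a2 to 0.028 and Sox9 to -0.011, and females' Gfap to -0.027 and Aldh1l1 to -0.028. A term for the header word turned males' Slc1a3 to -0.0050 and Aldh1l1 to -0.021.

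In males with the word, 2 MO libraries stood against 1 SAL library (PFC9) whose spread is assumed and not measured, so the calls compare these libraries and not the conditions: 3 members passed, against 10.3% of all genes, and 1 gene passed an adjusted p, with Gfap at 0.33, Aqp4 at 0.18, Slc1a2 at 0.27 and Gja1 at 0.092. In males without it Slc1a3 was -0.037, Aldh1l1 -0.059 and Sox9 -0.017. In females with it 1 member passed (Slc1a2, 0.37) against 4.73% of all genes, and without it (2 MO, 2 SAL) 2 members (S100b 0.23, Aldoc 0.20) against 10.5%, and 5 genes at an adjusted p, with Aqp4 at -0.13 and Slc1a2 at -0.073. The median r was 0.37 in males, 0.54 in libraries without the word and 0.46 in those with it when PFC1 was left out.

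Leaving out 1 library gave 0 members past an unadjusted p of 0.05 in males (median difference -0.024 to 0.049) and 0 to 3 in females (0.044 to 0.28): 3 without PFC21 (Slc1a2, Gja1, Sox9; 4.98% of all genes) and 1, Sox9, without PFC4, PFC5, PFC7 or PFC8 (2.61% to 5.06%). Over both sexes it gave 0 to 1 (1 without PFC17, against 4.93% of all genes) and for the interaction 0 to 1 (1 without PFC5, PFC7, PFC8 or PFC21, against 2.20% to 3.85%). The median r was 0.54 without PFC1. Male differences that changed sign ran from -0.10 to 0.18 for Gfap, -0.065 to 0.040 for Slc1a2, -0.029 to 0.057 for Slc1a3, -0.032 to 0.069 for Aldh1l1, -0.073 to 0.0030 for Gja1 and -0.024 to 0.047 for Sox9, and female ones from -0.011 to 0.41 for Gfap and -0.022 to 0.14 for Aldh1l1. The cause was not tested. The 10 genes held at least 414 normalized counts in each library.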
